A study of Mus musculus with 3 samples.

Results

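The transcripts described here are those of 10 genes of the Hippo pathway: the coactivators Yap1 and Wwtr1, the DNA-binding partners Tead1, Tead2, Tead3 and Tead4, the kinases Lats1 and Lats2, and the secreted target gene products Ccn1 and Ccn2. They were chosen by name, with earlier results of these data known. All 10 have a row among the 41743 gene symbols of the count tables. The filter on low counts left 12478 genes to test, among them 9 of the 10. Tead2 had no count in any library. RNA was recovered by immunoprecipitation and sequenced (RIP-seq) from K7M2, a mouse osteosarcoma cell line; the labels give both an rRNA depletion step and polyA RNA, and it is not settled which applies. In all 3 libraries the endogenous Ezr locus was disrupted by CRISPR/Cas9 (Ezrin -/-) and the cells stably carried a T567A ezrin cDNA, a mutant held in the closed form, and no treatment was given. Anti-ezrin antibody was used for 2 libraries (ezrin IP replicates 1 and 2) and normal mouse IgG for 1 library (IgG IP). The labels give no promoter for the vector, a library of input RNA was not analysed here, and every group carries the same genotype, so the comparison is between antibodies.

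The Hippo pathway is a kinase cascade that limits the activity of YAP (from Yap1) and TAZ (from Wwtr1). LATS kinases phosphorylate both proteins, which are then kept in the cytoplasm or degraded, and YAP and TAZ that reach the nucleus bind TEAD proteins at promoters and enhancers and switch on genes such as Ccn1 and Ccn2. The cascade responds to cell contact and to tension in the actin cytoskeleton, and merlin, a relative of ezrin encoded by Nf2, acts at its top.

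TEAD proteins bind DNA at GGAATG or its reverse complement CATTCC. RefSeq promoter sequences (GRCm38.p6, 250 bases before to 50 bases after a transcription start) were matched for 7 of the 10 genes, and Tead1, Tead4 and Ccn2 had no entry. The outermost start in that table was used, which for Yap1, Lats1 and Lats2 lies inside the gene's annotated bounds. There 5 of these 7 held the motif on either strand. In the whole table, 4817 of 32851 windows of the same length did (14.7%). The 4 matches that lie before the start are shown with their surroundings because TEAD motifs are how the pathway is known to reach its target genes; each sequence is 50 bases, read along the gene's strand from 5′ to 3′, with the motif in capitals.
Yap1 (chr9:8004710-8004759, minus strand, motif 141 bases before the start): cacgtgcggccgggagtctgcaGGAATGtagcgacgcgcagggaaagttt
Wwtr1 (chr3:57576019-57576068, minus strand, motif 136 bases before the start): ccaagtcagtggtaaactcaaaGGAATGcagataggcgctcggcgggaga
Tead3 (chr17:28350960-28351009, minus strand, motif 182 bases before the start): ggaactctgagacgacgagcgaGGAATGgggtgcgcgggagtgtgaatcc
Ccn1 (chr3:145650061-145650110, minus strand, motif 103 bases before the start): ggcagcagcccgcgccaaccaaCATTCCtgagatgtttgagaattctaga
The fifth match, in Lats2, began at base 5 after the start and is not shown, and Lats1 and Tead2 held none in these windows. RIP-seq counts RNA, so these letters are a description and the libraries do not measure binding at them. Members with the motif were found both among the lower transcripts and among those not called.

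Counts totalled 19676595 and 16196329 in ezrin IP replicates 1 and 2 and 10124580 in IgG IP. The libraries differed in composition: reads at Gm26917 and Gm42418, remnants of ribosomal RNA, took 0.122% (95% Clopper-Pearson interval 0.120 to 0.123) of the total in ezrin IP replicate 1, 0.198% (0.196 to 0.200) in replicate 2 and 16.5% (16.4 to 16.5) in IgG IP, intervals that cover counting error only. Ezr itself, which the counts cannot split into transgene and edited gene, had 7003, 5879 and 1479 counts in ezrin IP replicates 1 and 2 and IgG IP. In CPM (counts scaled to a common library total) these were 349, 350 and 155. Ezr was called higher in ezrin IP (log2 fold 1.18, SE 0.24, edgeR adjusted p = 1.30e-05). The labelled osteoblast identity was only partly seen: of 10 osteoblast markers, Runx2, Spp1, Sparc, Col1a1 and Col1a2 were present in all libraries and Alpl was rare, while Sp7, Bglap and Ibsp had at most 1 count per library. Of the 7 tested, 3 were higher and 3 lower in ezrin IP, where 19.0% of all tested genes were higher and 17.4% lower. Among other cell types, endothelial, epithelial, B cell and erythroid markers summed to at most 2.82, 0.835, 0.399 and 0.418 CPM in any library. The macrophage list summed to between 899.7 and 1256 CPM, nearly all from Csf1r, with Ptprc and Adgre1 at 0. No label states that the ezrin IP replicates are separate cultures, and p-values then measure only the spread between these samples, which may be technical.

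Compared with IgG IP, the ezrin libraries held less of the messages for both coactivators, both LATS kinases and Tead1, whereas the messages of the target genes Ccn1 and Ccn2 were not called in either direction. Of the 9 genes tested, 5 were lower (Yap1, Wwtr1, Tead1, Lats1 and Lats2), none was higher and 4 were not called (Tead3, Tead4, Ccn1 and Ccn2) in the quasi-likelihood test of edgeR at an adjusted p of 0.05 (Benjamini-Hochberg, over all genes). Across all 12478 genes, 17.4% were lower and 19.0% higher. At an unadjusted p under 0.05, edgeR placed 1 member (Ccn2) on the higher side. After adjustment, DESeq2 and limma-voom called 0 higher, as edgeR did. With limma on the deposited RPKM, plus 1 or plus 0.1, 1 member was lower (Tead1) and 1 higher (Ccn2). The median log2 fold of the 9 was −0.56, against −0.02 over all genes. Both ezrin libraries lay below IgG IP for 6 of the 9 and above it for 2, where 44.3% and 42.6% of all genes did so. Since IgG IP is 1 library, its own spread was not measured and is taken by the test to be like that of the ezrin libraries; an exact permutation test of any single gene over 2 against 1 libraries cannot give a p below 0.333. The libraries come from bulk cultures, and lower and higher refer to shares of the RNA recovered with each antibody. Without input RNA, these values do not measure levels in the cells.

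**Figure D1:**
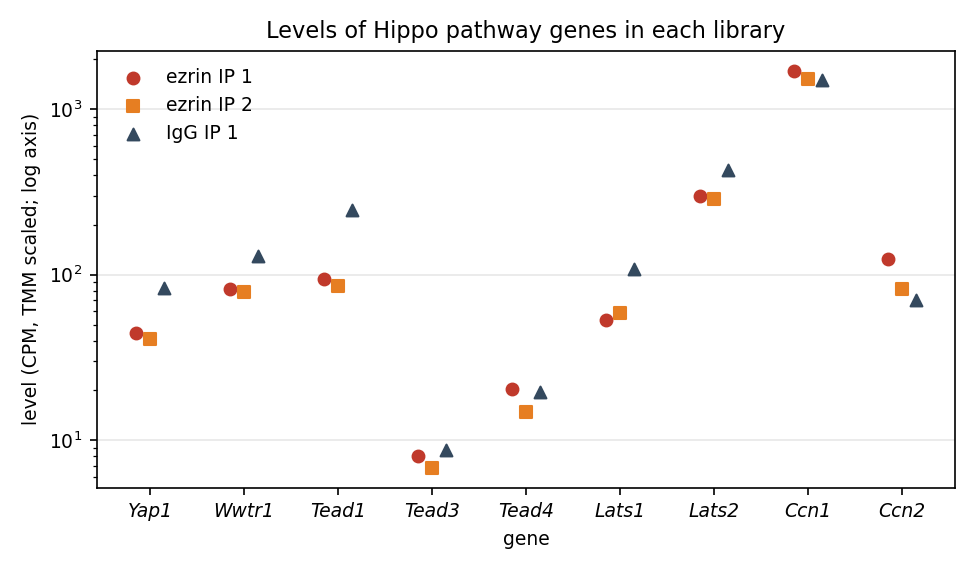
Level of each Hippo pathway gene in CPM (scaled by TMM, log axis) in ezrin IP replicate 1 (circle), ezrin IP replicate 2 (square) and IgG IP (triangle), 1 point per library. Yap1, Wwtr1, Tead1, Lats1 and Lats2 lie higher in IgG IP than in either ezrin library; Tead2, at 0 in all libraries, is not drawn.

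Yap1 (chromosome 9, 7931999 to 8004638, GRCm38.p6), the main transcriptional coactivator of the pathway, stood at 44.2 and 41.0 CPM in ezrin IP replicates 1 and 2 and at 83.5 CPM in IgG IP. The ezrin libraries were close to each other and clearly below IgG IP. The fold was 1.96 in favour of IgG (42.6 ± 2.25 CPM, SD, n = 2; log2 fold −0.97, SE 0.24, edgeR adjusted p = 3.83e-04). Wwtr1 (chromosome 3, 57455644 to 57575910), which encodes the paralog TAZ, had 82.3 and 78.2 CPM in the ezrin libraries and 129 CPM in IgG IP. Again neither ezrin library reached the IgG value, and the log2 fold was −0.69 (SE 0.23, edgeR adjusted p = 0.0122). Per length, Wwtr1 was the more abundant of the pair. The ratio of Wwtr1 to Yap1 in deposited RPKM (reads scaled by gene length and by the library's read total), in which library scaling cancels, was 3.61 and 3.69 in the ezrin libraries and 3.004 in IgG IP.

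Of the TEAD transcription factors, which carry YAP and TAZ to DNA, Tead1 was lower in ezrin IP and Tead3 and Tead4 were not called. Tead1 (chromosome 7, 112679356 to 112906784) had 93.8 and 85.5 CPM in the ezrin libraries and 245 CPM in IgG IP. This was the largest difference among the 9 genes, 2.73-fold in favour of IgG (log2 fold −1.45, SE 0.23, edgeR adjusted p = 7.84e-09), and Tead1 was called lower in each of the 10 alternative settings that give a test. Tead4 (chromosome 6, 128227143 to 128300813) had 20.3 and 14.8 CPM against 19.6 CPM, so the IgG value lay between those of the ezrin libraries. Its log2 fold was −0.16 (edgeR adjusted p = 0.673), with an approximate 95% interval of −0.68 to 0.36. Tead3 (chromosome 17, 28331671 to 28350805) was rare, with 161, 114 and 84 counts in ezrin IP replicates 1 and 2 and IgG IP, that is 8.02, 6.80 and 8.78 CPM. Its log2 fold was −0.24 (interval −0.90 to 0.41, edgeR adjusted p = 0.602). Tead2 (chromosome 7, 45215792 to 45233468) had 0 counts throughout, which allows up to 0.150, 0.179 and 0.314 CPM, the level of 3 counts in each library.

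The composition of the TEAD messages therefore differed between antibodies, a quantity that no library scaling enters. Per length, Tead1 made up 50.3% and 55.2% of the summed TEAD RPKM in the ezrin libraries and 72.7% in IgG IP. Tead4 made up 41.1% and 36.0% against 22.03%, and Tead3 8.68% and 8.86% against 5.27%. The ratio of Tead1 to Tead4 was 1.22 and 1.53 in the ezrin libraries and 3.30 in IgG IP. In both ezrin libraries the Tead1 share was below that of IgG IP. The shares of a library add up to the whole, so a lower Tead1 share forces a higher sum of the Tead3 and Tead4 shares. The rises of Tead3 and Tead4 are therefore not separate findings, and neither transcript was itself called (edgeR log2 folds −0.24 and −0.16). The difference in paralog shares was not tested beyond the single-gene results.

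**Figure D2:**
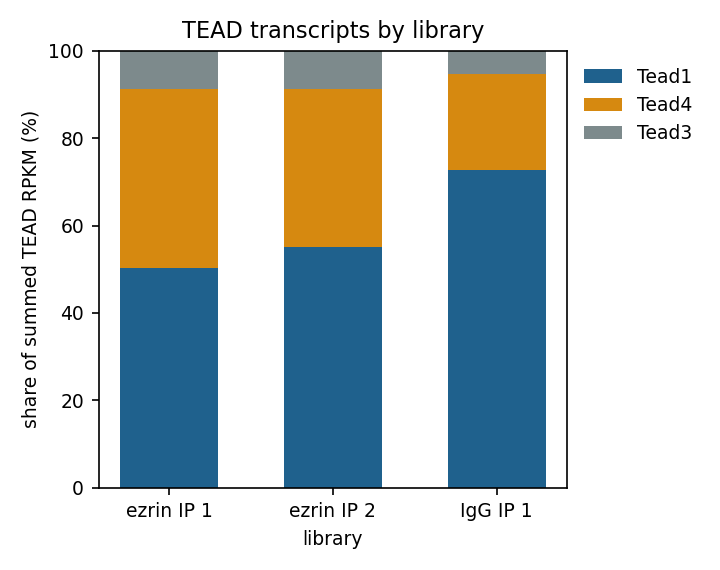
Share of the summed RPKM of Tead1, Tead3 and Tead4 (percent, bars from 0) in each of the 3 libraries, without error bars since each bar is 1 library. Tead1 takes 50.3% and 55.2% in the ezrin libraries and 72.7% in IgG IP.

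The LATS kinases, which restrain YAP and TAZ, were both lower. Lats1 (chromosome 10, 7681200 to 7716461) had 53.4 and 58.6 CPM in the ezrin libraries and 109 CPM in IgG IP, a difference of 1.94-fold in favour of IgG (log2 fold −0.96, SE 0.24, edgeR adjusted p = 3.44e-04). Lats2 (chromosome 14, 57689662 to 57746212), itself a target of YAP, had 301 and 286 CPM against 431 CPM. It had the smallest difference among the called genes (log2 fold −0.56, SE 0.22, edgeR adjusted p = 0.0348). With DESeq2 (adjusted p = 0.0546) and limma-voom (0.0544) it missed the threshold, as it did with library size as the only scaling (edgeR adjusted p = 0.110). Per length Lats2 exceeded Lats1 5.90-fold and 5.10-fold in the ezrin libraries and 4.15-fold in IgG IP.

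Ccn1 and Ccn2 encode matricellular proteins, secreted into the matrix where they act on integrins and growth factors, and their transcripts are widely read as a measure of YAP and TAZ activity. Ccn1 (chromosome 3, 145646971 to 145649985) was the most abundant member, with 1712 and 1533 CPM in the ezrin libraries and 1496 CPM in IgG IP. The ezrin values lay just above IgG, but the difference was smaller than its error (log2 fold 0.12, SE 0.21, edgeR adjusted p = 0.692, interval −0.29 to 0.53). After cyclic loess, which removes a trend with expression level, Ccn1 turned to the lower side and passed (limma log2 fold −0.63, adjusted p = 0.0101). Ccn2 (chromosome 10, 24595442 to 24598683) had 125 and 82.2 CPM in the ezrin libraries against 70.5 CPM. Replicate 1 was well above IgG and replicate 2 only slightly, with log2 ratios to IgG of 0.82 and 0.22, and Ccn2 did not pass (edgeR adjusted p = 0.0632, log2 fold 0.56, SE 0.25). It did pass on the higher side in 4 of 10 alternative settings, among them library size as the only scaling (edgeR adjusted p = 0.0232).

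Set against Yap1 within each library, both target transcripts were relatively more abundant in ezrin IP. The RPKM ratio of Ccn1 to Yap1 was 178 and 171 in the ezrin libraries and 82.1 in IgG IP. That of Ccn2 to Yap1 was 9.16 and 6.49 against 2.73. Ccn1 exceeded Ccn2 19.4-fold and 26.4-fold in the ezrin libraries and 30.0-fold in IgG IP. These ratios carry no library scaling, were chosen with the values known, and were not tested. Yap1, the denominator of the ratios to it, was itself called lower (edgeR log2 fold −0.97), and neither Ccn1 nor Ccn2 was called. The higher ratios to Yap1 are therefore not findings separate from the single-gene results.

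**Figure D3:**
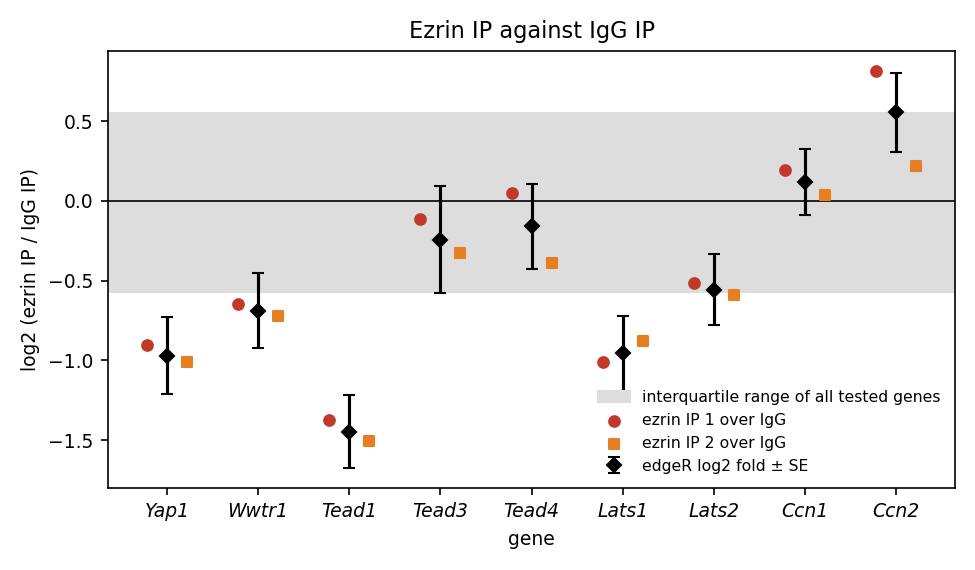
Log2 ratio of ezrin IP to IgG IP for the 9 tested genes: diamonds give edgeR's log2 fold with ± 1 SE, circles and squares the ratio of each ezrin library to IgG with 1 CPM added to both sides, and the grey band the interquartile range of all 12478 tested genes (−0.57 to 0.55). Yap1, Wwtr1, Tead1 and Lats1 lie below the band, Lats2 at its lower edge, and the ezrin libraries differ most for Ccn2.

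Levels per length spanned a wide range and kept nearly the same order in every library. Ccn1 was first (481 to 711 RPKM). Lats2 (35.3 to 40.1) and Ccn2 (16.0 to 36.7) overlapped over the 3 libraries, as did Ccn2 and Wwtr1 (14.1 to 17.6). Next came Tead1 (5.43 to 11.7) and Lats1 (6.14 to 9.67), which overlapped, then Yap1 (3.82 to 5.85) and Tead4 (3.54 to 4.74), which overlapped as well, with Yap1 also reaching into the range of Tead1. Tead3 (0.849 to 1.003) was the lowest gene detected.

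The members also differed in gene length, which the choice of genes did not use. By the length that deposited count over RPKM implies, the 5 lower genes measured from 4779 bases (Wwtr1) to 13570 bases (Tead1), with Yap1 at 9257, Lats1 at 7297 and Lats2 at 6971. Ccn1 and Ccn2 were shorter, at 2019 and 2861 bases, and Tead4 and Tead3 measured 3598 and 6714. Over all tested genes, 21.7% of those over 6000 bases were lower and 16.6% higher, against 15.3% and 21.5% of those between 3000 and 6000 bases and 15.6% and 18.5% of those under 3000 bases. With a trend on length subtracted, the log2 folds of Tead1 and Yap1 were −1.20 and −0.85 and that of Ccn2 was 0.56.

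The choice of scaling moved the median of all genes in some settings, and single genes by different amounts. After cyclic loess that median shifted by −0.002, while Lats2 relative to it went from −0.54 to −0.93 and Ccn1 from 0.14 to −0.60. The deposited RPKM raised the median log2 fold of all tested genes by 0.24 (with 1 RPKM added) and 0.36 (with 0.1 added) relative to edgeR, and limma then called 3734 genes higher and 964 lower with 1 added, against 2377 and 2171 by edgeR. On that scale only Tead1 remained called lower (log2 fold −0.94, limma adjusted p = 0.00795), and Yap1 (−0.48), Lats1 (−0.50), Wwtr1 (−0.28) and Lats2 (−0.16) did not pass. Relative to the median of all genes in the same setting, Yap1 lay between −1.06 and −0.70, Lats1 between −1.06 and −0.72, and Tead1 between −1.63 and −1.16 over the reported fit and all 13 alternatives. Wwtr1 lay between −0.83 and −0.50 and Lats2 between −0.93 and −0.38. Ccn2 was above that median in each of them (0.25 to 0.82).

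**Figure D4:**
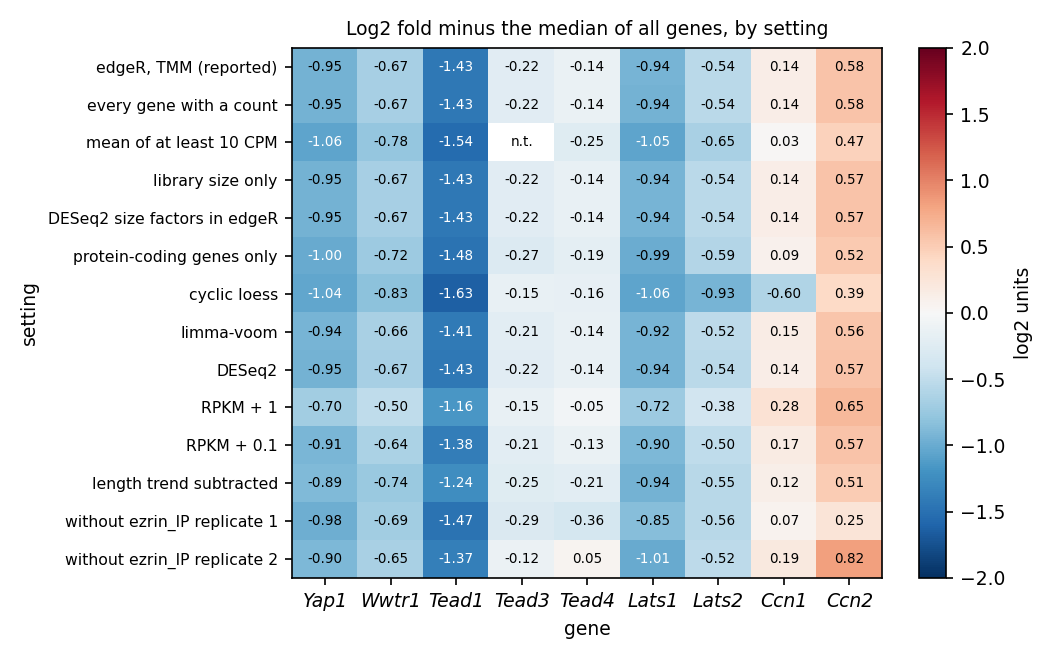
Log2 fold of each gene minus the median log2 fold of all genes in the same setting (colour and number; n.t., not tested), for the reported edgeR fit and 13 alternatives. Yap1, Wwtr1, Tead1, Lats1 and Lats2 are below 0 in every row and Ccn2 above 0, while Ccn1 turns to −0.60 after cyclic loess.

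Upstream of LATS, messages went both ways. Of 32 tested genes of 33 with a row, 8 were lower and 3 higher (17.4% and 19.0% of all genes were), and the median log2 fold was −0.14. The kinase paralogs MST1 and MST2, which activate LATS, received different calls: Stk3 (MST2) had 45.3 and 58.6 CPM in the ezrin libraries and 26.5 CPM in IgG IP and was higher (log2 fold 0.97, SE 0.27, edgeR adjusted p = 0.00155). Stk4 (MST1) had 47.5 and 53.7 against 56.2 CPM and did not pass (edgeR adjusted p = 0.662). Within a library, Stk4 and Stk3 were near equal per length in ezrin IP (ratios 1.09 and 0.955), while Stk4 exceeded Stk3 2.21-fold in IgG IP, a contrast of paralogs that was not tested. Their scaffold Sav1 was lower (52.6 and 60.5 against 108 CPM, log2 fold −0.93), and so was Nf2 (132 and 148 against 265 CPM, −0.92).

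The LATS cofactor paralogs Mob1a and Mob1b also differed in their calls. Mob1b had 17.7 and 22.8 CPM in the ezrin libraries and 65.5 CPM in IgG IP (log2 fold −1.695, SE 0.24, edgeR adjusted p = 1.38e-10). Mob1a, the more abundant per length, had 106 and 121 against 144 CPM and did not pass (edgeR adjusted p = 0.255). The RPKM ratio of Mob1a to Mob1b was 18.8 and 16.6 in the ezrin libraries and 6.87 in IgG IP, again not tested. Other lower genes were Taok1 (log2 fold −0.76), a kinase that activates MST1 and MST2, Limd1 (−0.77), a LIM protein that binds LATS, Strn (−0.66) and Slmap (−0.54), parts of the phosphatase complex that opposes MST kinases, and the rare protocadherin gene Dchs1, with 23, 10 and 26 counts. Rassf1 (log2 fold 0.98), which binds MST kinases, and Stk38l (1.03), a kinase related to LATS, were higher. Fat1, a protocadherin gene with the highest CPM of this list, had 480 and 541 against 585 CPM and did not pass (edgeR adjusted p = 0.501). With DESeq2 and with library size as the only scaling 5 genes of this list were lower in place of 8, and Slmap and Strn were not called in either.

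Partners that bind YAP, TAZ or TEAD proteins were split as well. Of 11 tested genes of 14, 3 were higher and 4 lower (27.3% and 36.4%, against 19.0% and 17.4% of all genes), with a median log2 fold of 0.22. The angiomotins, which hold YAP at junctions, went in different directions: Amotl1 had 198 CPM in each ezrin library and 363 CPM in IgG IP (log2 fold −0.87), and Amot was rare and lower (85, 69 and 78 counts). Amotl2, also a YAP target, had 1462 and 1134 against 889 CPM (log2 fold 0.55, SE 0.22, edgeR adjusted p = 0.0345). With DESeq2 its log2 fold was 0.56 but did not pass (adjusted p = 0.0673), nor did it pass with limma-voom (0.0554) or, by edgeR, at a mean of at least 10 CPM (0.132), and its direction turned after cyclic loess (log2 fold −0.13). Btrc, whose product marks YAP and TAZ for degradation, had 45.7 and 52.2 against 27.5 CPM and was also higher (log2 fold 0.83). Vgll4 (−0.59), which competes with YAP for TEAD, and the kinase Csnk1e (−0.89) were lower, and the other Vgll genes had at most 1 count per library.

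YAP and TEAD target genes outside the 10 named ones were mostly not called. Of 16 tested of 19, 3 were higher (18.8%, close to the 19.0% of all genes), none was lower (17.4% of all genes) and 13 were not called, with a median log2 fold of −0.08; at an unadjusted p under 0.05 edgeR likewise placed 0 on the lower side, as did DESeq2 after adjustment, and limma after cyclic loess called 3 lower. Myof, which encodes myoferlin, a membrane repair protein, had 2345 and 2675 CPM in the ezrin libraries and 878 CPM in IgG IP (log2 fold 1.52, SE 0.22, edgeR adjusted p = 3.40e-10). Gadd45b, a stress response gene, had 31.2 and 28.9 against 11.7 CPM (log2 fold 1.36), and Amotl2 was the third. Ankrd1, another widely used YAP target, had 514 and 610 against 632 CPM and did not pass (edgeR adjusted p = 0.566). Among the other CCN genes, Ccn4 was lower, at 70.5 and 74.5 against 185 CPM (log2 fold −1.35, SE 0.23, edgeR adjusted p = 1.17e-07). Ccn3 and Ccn5 were not called (log2 folds −0.52 for both) and Ccn6 had no count.

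**Figure D5:**
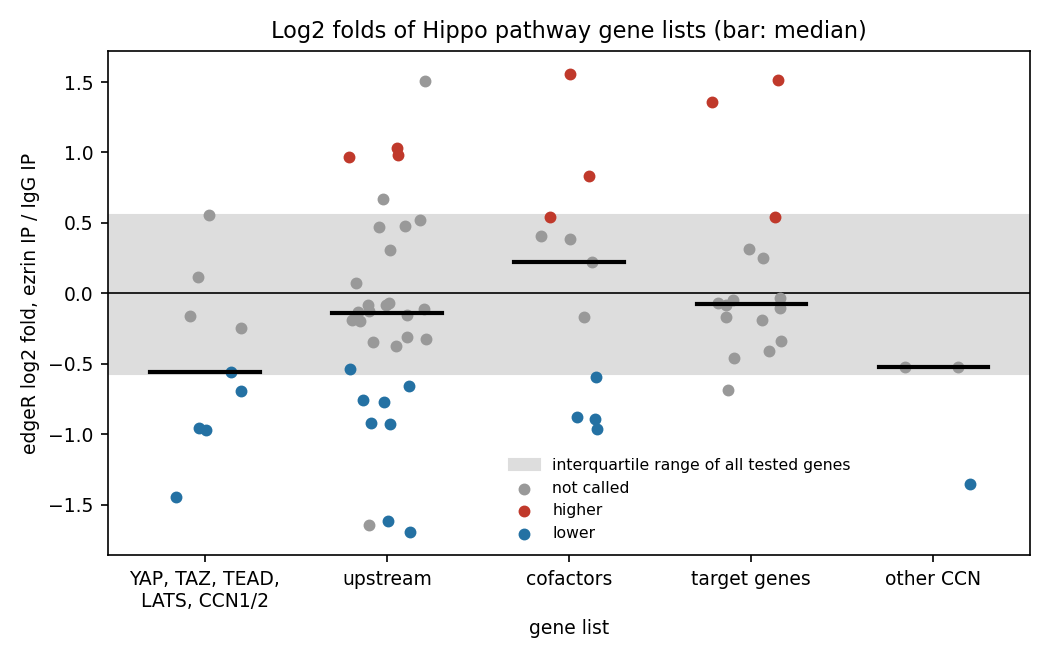
EdgeR log2 folds of ezrin IP over IgG IP for the tested genes of 5 lists, 1 point per gene (red, called higher; blue, called lower; grey, not called), with a bar at each list's median and a grey band for the interquartile range of all tested genes. The first list holds 5 lower and no higher genes, the target genes 3 higher and none lower; Amotl2, Ajuba and Ptpn14 stand in more than 1 list.

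The 3 tested genes whose levels were closest to those of Yap1 over the 3 libraries, by Euclidean distance in log2(CPM + 1), were Cmtm3 (distance 0.0769), Mtfr1l (0.112) and R3hdm1 (0.115). Cmtm3 had 45.6, 40.7 and 79.9 CPM in ezrin IP replicates 1 and 2 and IgG IP. With 3 libraries this likeness describes a level and 1 difference only.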

How the data were processed

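For each of 3 libraries the authors deposited unnormalized counts by gene symbol and, in a second table, RPKM, per the file headers. The genome build was GRCm38, per the submitters' processing notes; no aligner, counter, annotation or use of strand was given in the sources used here. Gene lengths were taken from deposited count over RPKM, with the read total set on small RNA genes of known length. The deposited counts made up 82.3%, 83.2% and 68.7% of that total in ezrin IP replicates 1 and 2 and IgG IP, so RPKM and CPM scale the libraries differently.

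Counts were tested with edgeR 4.0.16 (R 4.3.3): TMM factors 1.02, 1.04 and 0.946, filterByExpr by group, quasi-likelihood fit and Benjamini-Hochberg adjustment over 12478 genes at 0.05. The fit has 1 residual degree of freedom and an infinite prior, so the spread pooled over genes was used, and SE is the size of the log2 fold over the square root of F. On simulated counts, it called 52.4% of changes with log2 fold 1 and 60.4% with −1, and 100% with 2 and 98.4% with −2. Changed genes had a mean of at least 50 counts, and false calls averaged 10.8 per simulated set. Every simulated library was given the same spread, so a different spread of IgG IP was not tested. Alternatives changed the filter, scaling, tool (DESeq2 1.42.0, limma 3.58.1), unit, length trend or libraries. Ratios of single libraries add 1 CPM to both sides.

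Members and pathway lists were chosen with earlier results of these data known. Named genes are the 10 members, Ezr, called list genes averaging at least 10 CPM, the most abundant gene of each list and the 3 nearest to Yap1. Other genes (Stk4, Mob1a, Ankrd1, Dchs1, Amot, Ccn3, Ccn5) were named after their values were seen. Some genes that this rule takes are not reported here. Protein sequences were not analysed here.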

Additional observations from a re-analysis of the deposited data

How the results depend on the processing

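No paired analysis was possible because the groups share only replicate number 1. Tead1 was called lower in 10 of 10 alternatives with a test, Yap1, Wwtr1 and Lats1 in 8, and Lats2 in 4; leaving out ezrin IP replicate 1 or 2 leaves a value with no test (median of the 9 genes −0.59 and −0.52). Members called higher numbered 1 (Ccn2) in place of 0 when every gene with a count was kept, with library size as the only scaling and with RPKM plus 1 or plus 0.1, and members called lower numbered 1 in place of 5 with both RPKM pseudocounts. With RPKM plus 1 and plus 0.1, all genes called higher numbered 3734 and 3745 and lower 964 and 843, upstream genes higher 8 and 8 and lower 1 and 1, and cofactors higher 5 and 5 and lower 0 and 0 (main counts 3, 8, 3 and 4). Library size as the only scaling gave 6 higher and 5 lower upstream genes and 2 lower cofactors. DESeq2 gave 1101 lower genes in all, 5 lower upstream genes and 2 lower cofactors, and keeping every gene with a count gave 2 lower cofactors. At a mean of at least 10 CPM, 1 target gene and 2 other CCN genes were lower, and after cyclic loess 3 and 2 (main counts 0 and 1). Direction turned for genes that were not called: Tead3 to 0.067 and 0.13 and Tead4 to 0.17 and 0.20 with RPKM plus 1 and plus 0.1, Tead4 to 0.047 without ezrin IP replicate 2, and Ccn1 to −0.63 after cyclic loess; Amotl2, called higher, turned to −0.13 after cyclic loess. RPKM and library size scaling moved the median of all tested genes up, by 0.12 to 0.36 in log2. The cause of the other changes was not tested. Depth limits rare genes of the lists such as Fat4, Tnik and Map4k1 (at most 18, 9 and 17 counts in any library) and, among the members, Tead3 (at most 161).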
